A study of Homo sapiens with 6 samples.

Results

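Antisense long noncoding RNAs were taken from the deposited gene table as the rows whose symbol ends in -AS plus a digit and whose counts sum to at least 60 over the 6 libraries. This gave 457 antisense RNAs out of 1769 rows with such a symbol and 61806 genes in the table. Each was set against the gene named before -AS. RNA sequencing had been done on HFF cells, a cell-bank culture of wild-type human foreskin fibroblasts that serves as a model of dermal fibroblasts. The UVB + sauchinone group (3 libraries) received ultraviolet B (UVB) at 40 mJ per cm2 and was cultured with 10 µM sauchinone, a plant lignan, for 48 h. The UVB group (3 libraries) received the same irradiation, vehicle in place of the compound and the same 48 h of culture. All 6 libraries are thus from irradiated cells, and unirradiated cells were not analysed here. The labels describe the compound as added after irradiation, and in a further version also before it, without saying which version these libraries followed. They also do not say whether the 3 libraries of a group came from separate cultures, so p-values measure the spread between these libraries, which may be technical.

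An antisense RNA is transcribed from the DNA strand opposite to the gene it is named after. Some start beside the promoter of that gene and run away from it, some start within the gene, and some run into its far end, so the name gives a position and not a function. Individual members are known to act on the neighbouring gene, by recruiting chromatin modifiers, by transcriptional interference or by pairing with its RNA, and others act elsewhere in the cell, for example by binding microRNAs or proteins.

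The total count was 21645464 to 23076388 per library with UVB + sauchinone and 20984851 to 23075536 with UVB. All 8 fibroblast markers examined had at least 1 FPKM (fragments scaled to exon length and library size), with a summed level of 1920 to 1980 FPKM with UVB + sauchinone and 2600 to 2820 FPKM with UVB. Of the keratinocyte markers, 0 of 4 reached 1 FPKM (summed 0.14 to 0.28 with UVB + sauchinone, 0.08 to 0.26 with UVB), with 2 listed at 0, and likewise 0 of 4 melanocyte markers (0.38 to 0.45 and 0.49 to 0.74), with 1 at 0. The same held for 0 of 3 endothelial markers (0.04 to 0.09 with UVB + sauchinone, 0.04 to 0.07 with UVB), while 1 of 3 immune markers reached 1 FPKM (1.19 to 1.76 and 1.03 to 1.26). In bulk RNA, fewer cells of a type and less RNA per cell cannot be told apart.

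Start regions of 4 antisense RNAs that are described below are shown because their starts lie close to that of the named gene, with different outcomes in each pair. The sequences are from RefSeq (build GRCh38.p14, minus strand, printed 5′ to 3′ along the antisense RNA), and up to 250 bases before the start and 50 after it were taken. Bases annotated as untranslated region or lying past the start of the named gene were left out. Capitals mark matches to CCAAT or to the GC box (GGGCGG or its reverse complement CCGCCC). By RefSeq, HIF1A-AS1 (chr14:61695805-61696073) starts 310 bp inside HIF1A, MAP3K4-AS1 (chr6:160992293-160992592) starts 573 bp inside MAP3K4, DYRK3-AS1 (chr1:206635335-206635535) starts 152 bp before DYRK3, and RASAL2-AS1 (chr1:178093944-178094103) starts 111 bp before RASAL2.
HIF1A-AS1: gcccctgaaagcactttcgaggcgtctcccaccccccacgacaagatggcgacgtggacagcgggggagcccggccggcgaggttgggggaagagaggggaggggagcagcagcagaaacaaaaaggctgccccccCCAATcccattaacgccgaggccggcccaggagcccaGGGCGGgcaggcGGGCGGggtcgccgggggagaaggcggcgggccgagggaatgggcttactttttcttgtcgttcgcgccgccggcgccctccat
MAP3K4-AS1: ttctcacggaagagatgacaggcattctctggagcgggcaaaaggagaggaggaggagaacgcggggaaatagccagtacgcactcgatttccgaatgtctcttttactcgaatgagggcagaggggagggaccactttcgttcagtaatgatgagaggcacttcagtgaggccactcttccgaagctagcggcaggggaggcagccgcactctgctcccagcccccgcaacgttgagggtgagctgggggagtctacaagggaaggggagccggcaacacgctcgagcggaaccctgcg
DYRK3-AS1: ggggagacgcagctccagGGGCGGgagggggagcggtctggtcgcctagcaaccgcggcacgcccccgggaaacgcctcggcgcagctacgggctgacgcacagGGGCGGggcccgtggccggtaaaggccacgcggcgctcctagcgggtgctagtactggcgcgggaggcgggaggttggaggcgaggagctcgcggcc
RASAL2-AS1: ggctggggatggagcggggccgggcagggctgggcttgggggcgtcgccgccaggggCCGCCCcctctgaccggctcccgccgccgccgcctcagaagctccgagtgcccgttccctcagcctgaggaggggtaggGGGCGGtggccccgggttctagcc

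RefSeq start regions of 300 bases were found for 337 of the 457 antisense RNAs, and 27305 regions of all genes were available. The median GC content was 64.3% for the antisense RNAs and 58% for all genes. On either strand, the GC box was present in 59.3% of the antisense start regions and 43.8% of all, CCAAT in 30.6% and 35.6%, the E-box CACGTG in 8.90% and 7.28%, the AP-1 letters TGANTCA in 7.12% and 7.90%, and the CRE letters TGACGTCA in 3.56% and 1.94%. The GC box was present in 58.8% of the 34 matched members that rose and in 58.8% of the 51 that fell. In the same 2 sets, CCAAT was present in 20.6% (7 regions) and 39.2% (20), the E-box in 11.8% (4) and 5.88% (3), and the AP-1 letters in 5.88% (2) and 1.96% (1). These matches are descriptions of letters in a window.

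Most members were scarce. Their summed count ran from 60 to 15227 with a median of 220, and together they held 0.206% of all counts. Just inside the limit of 60 were BET1-AS1, C2CD4D-AS1, CRYM-AS1, HHLA3-AS1, LRP2BP-AS1, MYL12-AS1, RUFY1-AS1 and SNRK-AS1 with 60 counts each, and just outside it were KANSL1L-AS1, NUP153-AS1, TMEM220-AS1, TMEM92-AS1 and ZNF652-AS1 with 59. Per length, the median level was 0.55 FPKM, and 117 members had a mean of at least 1 FPKM. A named gene was listed for 453 members, and in 363 of 450 pairs with a detected named gene (80.7%) the antisense RNA had the lower FPKM. The median ratio of FPKM was 0.147.

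By the coordinates of the table, 452 members lie on the strand opposite to the named gene and 1, FAM131B-AS2, on the same strand. The gene bodies overlap for 426 members, and for 134 the 2 starts lie within 1000 bp. By the exons of GENCODE release 29, a median of 6.50% of a member's exonic bases falls in exons of the named gene, 17.9% in its introns and 68.6% outside it. The libraries are strand-specific, but whether strand was used in counting is not given in the sources used here. In the deposited counts, all 28 genes whose exons lie wholly within exons of an opposite-strand gene of at least 5 FPKM were listed at 0 in all 6 libraries, whereas 15 of 150 such genes with under 20% of their bases covered were. Reads from the overlapping parts of a pair are therefore uncertain, and 32 members have at least 50% of their exonic bases inside an exon on the opposite strand.

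Of the 457 antisense RNAs, 443 had enough counts to be tested, and 41 were higher (9.26%) and 80 lower (18.1%) with UVB + sauchinone at an adjusted p under 0.05 (edgeR quasi-likelihood test, Benjamini-Hochberg adjustment over 15704 genes). The other 322 did not pass, and 14 of the 457 were too scarce to be tested. Over all tested genes, 49.6% were called, 24.7% higher and 24.9% lower. The median log2 fold change of UVB + sauchinone over UVB was −0.10 for the members and 0.01 for all tested genes. A change of at least 2-fold was called upward for 13 members and downward for 37, against 4.25% and 7.31% of all tested genes. The libraries of the groups did not overlap for 181 members, 40.9% against 57.1% of all tested genes. The number of higher members fell from 41 whichever library was left out. It was 25 without UVB + sauchinone replicate 2 and 31 to 34 without any other library.

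**Figure D1:**
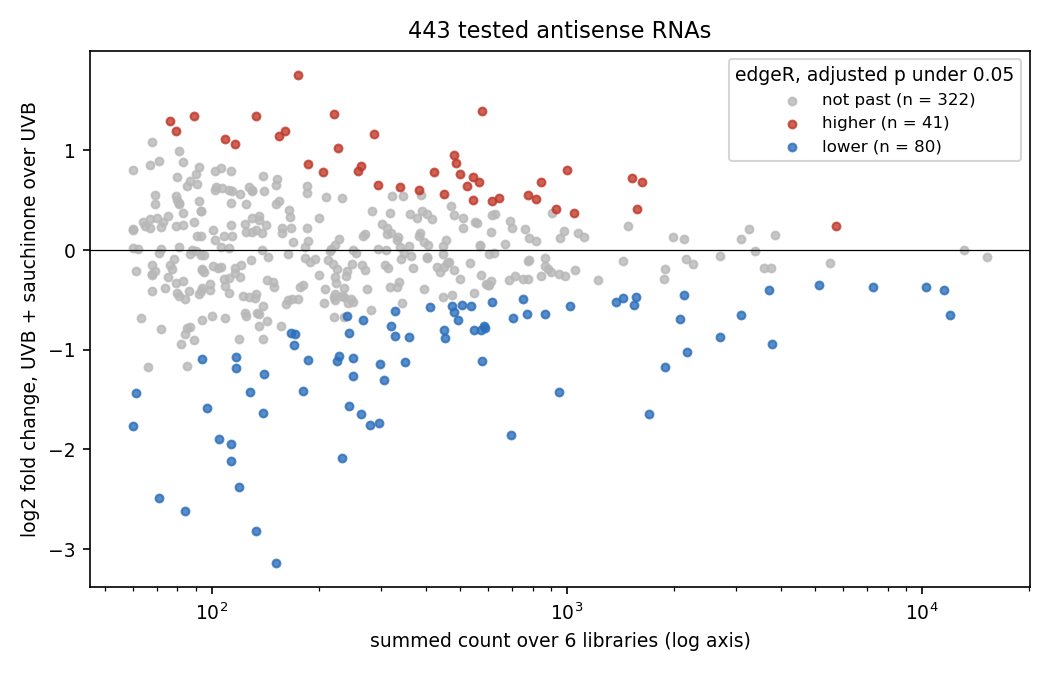
Log2 fold change of UVB + sauchinone over UVB (vertical axis) against the summed count over 6 libraries (horizontal log axis) for the 443 tested antisense RNAs, coloured by call. At the high end, with at least 2000 counts, 12 members lie among the lower calls and 1 among the higher ones.

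The share called moved with the count. The median standard error of the log2 fold change was 0.30 for the members and 0.12 for all tested genes. With 60 to 199 counts, 10 members were higher and 22 lower of 204 (15.7% called, against 22.7% of all genes in that range). With 200 to 599 counts, 19 were higher and 32 lower of 150 (34.0% against 37.7%). In the range of 600 to 1999 counts, 11 were higher and 14 lower of 63 (39.7% against 54.5%). Among the 26 members with at least 2000 counts, 1 was higher and 12 were lower (50% against 60.7%), while all genes in that range divided into 31.5% higher and 29.2% lower. The 12 were MAGI2-AS3, OIP5-AS1, TRHDE-AS1, PAX8-AS1, WAC-AS1, RGMB-AS1, LOXL1-AS1, PSMA3-AS1, MBNL1-AS1, NR2F1-AS1, NNT-AS1 and GASK1B-AS1, named after their values were seen.

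Genomic span moved with the calls. Of 167 members spanning under 10 kb, 27 were higher (16.2%) and 13 lower (7.78%). Of 167 spanning 10 to 50 kb, 10 were higher (5.99%) and 28 lower (16.8%). Of 109 spanning at least 50 kb, 4 were higher (3.67%) and 39 lower (35.8%). Across the 3 classes of span, all tested genes were higher in 31.0%, 30.7% and 12.7% and lower in 8.53%, 17.0% and 47.0%. The median span was 4.41 kb for the higher members, 44.9 kb for the lower ones and 15.4 kb for those not past the threshold. Of the 119 members named after a gene of at least 100 kb, 9 were higher (7.56%) and 32 lower (26.9%), beside 24.7% and 24.9% of all tested genes. The part of span in each result below was not tested.

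**Figure D2:**
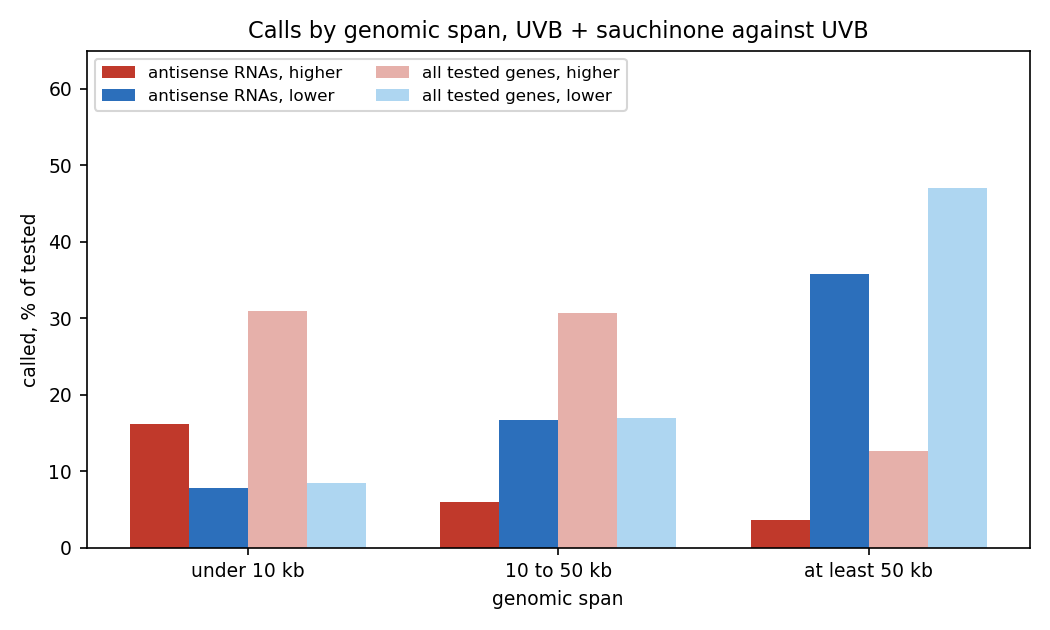
Share of tested RNAs called higher or lower with UVB + sauchinone (vertical axis, %) by genomic span (horizontal axis) for antisense RNAs (dark bars) and all tested genes (light bars). Lower calls take 7.78%, 16.8% and 35.8% of antisense RNAs from the shortest class to the longest.

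The antisense RNAs with the highest level per length differed in whether they moved. TBX5-AS1 (ENSG00000255399, chromosome 12, 114408131 to 114412832), named after a T-box transcription factor of limb and heart, had the highest mean at 20.8 FPKM. It had 94.2, 91.9 and 107 CPM (counts scaled to TMM-adjusted library size) with UVB + sauchinone and 101, 94.8 and 98.1 CPM with UVB, so the groups overlapped, and TBX5 itself changed by −0.02 (log2; edgeR adjusted p = 0.86). FGD5-AS1 (ENSG00000225733, 18.8 FPKM) averaged 111 ± 4.18 CPM with UVB + sauchinone and 117 ± 0.39 CPM with UVB (SD, n = 3 each), and the edgeR quasi-likelihood test gave an adjusted p of 0.48. FGD5, a guanine nucleotide exchange factor of endothelial cells, was too scarce to be tested. MYG1-AS1 (ENSG00000257605, 16 FPKM) had 14.5, 13.2 and 14.6 CPM with UVB + sauchinone and 7.03, 10.8 and 7.81 CPM with UVB. Its libraries did not overlap between groups (log2 fold change 0.72, edgeR adjusted p = 0.00031), and MYG1, an exonuclease gene, had a log2 fold change of −0.17 (adjusted p = 0.73).

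RGMB-AS1 (ENSG00000246763, chromosome 5, 98769618 to 98773469, 12.0 FPKM) lies inside RGMB, a coreceptor for bone morphogenetic proteins. It had 21.2, 19.1 and 18.2 CPM with UVB + sauchinone and 37.9, 37.3 and 37.3 CPM with UVB. The 2 groups were well apart, with a log2 fold change of −0.94 ± 0.10 (SE; edgeR adjusted p = 4.4e-08), and RGMB was also lower (−0.49). WAC-AS1 (ENSG00000254635, 11.3 FPKM) averaged 33.8 ± 2.16 CPM with UVB + sauchinone and 43.0 ± 0.76 CPM with UVB (SD, n = 3 each; log2 fold change −0.35, edgeR adjusted p = 0.0026). WAC, an adaptor in histone ubiquitination, was called in the other direction by a narrow margin (0.21, adjusted p = 0.044), and its adjusted p ran from 0.0072 to 0.24 over the alternatives, above the threshold with DESeq2 (0.053), upper-quartile scaling (0.053) or no filter (0.054), and without UVB + sauchinone replicate 2 (0.24) or 3 (0.073) or UVB replicate 1 (0.071) or 2 (0.19).

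The 8 largest falls, picked for groups that do not overlap, were in antisense RNAs of 71 to 232 summed counts. These reached the limit of 60 mainly through the UVB libraries, where they are high, and RNAs scarce in both groups are not listed. That large falls occur among scarce members is therefore partly set by the choice. PLCE1-AS1 (ENSG00000268894, chromosome 10, 94278681 to 94287478), inside the gene for phospholipase C epsilon, had 5, 10 and 1 counts with UVB + sauchinone and 54, 42 and 40 with UVB. RAP2C-AS1 (ENSG00000232160, chromosome X, 132217053 to 132432862), named after a small GTPase of the Ras family, had 3, 9 and 5 counts with UVB + sauchinone and 35, 37 and 44 with UVB. In both, as the choice required, every UVB + sauchinone library lay below every UVB library. Their log2 fold changes were −3.14 ± 0.46 (edgeR adjusted p = 5.9e-06) and −2.82 ± 0.42 (7.1e-06). Without UVB + sauchinone replicate 2 the value of PLCE1-AS1 was −3.93. PLCE1 was lower as well (−0.77), and 94.4% of the exonic bases of PLCE1-AS1 lie in its introns. RAP2C had 66.1, 64.9 and 59.8 CPM with UVB + sauchinone and 54.5, 54.6 and 61.2 CPM with UVB, with overlap and a log2 fold change of 0.16 by edgeR (adjusted p = 0.12). It passed without UVB replicate 3 (0.025), within a range of 0.025 to 0.36.

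SLC8A1-AS1, named after a sodium-calcium exchanger, had 4, 0 and 8 counts with UVB + sauchinone and 19, 25 and 28 with UVB. MKX-AS1, named after the tendon homeobox factor Mohawk, had 2, 1 and 8 counts with UVB + sauchinone and 17, 21 and 22 with UVB. The groups did not overlap in either, though several UVB + sauchinone libraries were at or under the floor of 3 counts that covers counting error only. The log2 fold changes were −2.62 for SLC8A1-AS1 beside −1.75 for SLC8A1, and −2.48 for MKX-AS1 beside −0.88 for MKX. Without UVB + sauchinone replicate 3 the antisense values were −3.56 for SLC8A1-AS1 and −3.68 for MKX-AS1, and limma-voom gave −3.26 for SLC8A1-AS1. PRKG1-AS1 fell by 2.37 on the log2 scale beside −1.17 for PRKG1, the cyclic GMP-dependent protein kinase, and IRAG1-AS1 fell by 1.94 beside −2.05 for IRAG1, a substrate of that kinase. FLG-AS1 fell by 2.09 and its named gene FLG, for the epidermal protein filaggrin, by 1.44.

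HIF1A-AS1 and HIF1A-AS3 are both named after the oxygen-responsive transcription factor HIF1A, and both fell. HIF1A-AS1 (ENSG00000258777, chromosome 14, 61680723 to 61695892), whose start region is printed above, had 6, 9 and 7 counts with UVB + sauchinone and 42, 20 and 29 with UVB. HIF1A-AS3 (ENSG00000258667), which runs into the far end of the gene, had 1.22, 1.60 and 1.16 CPM with UVB + sauchinone and 2.41, 3.15 and 4.28 CPM with UVB. HIF1A had 551, 574 and 574 CPM with UVB + sauchinone and 851, 821 and 997 CPM with UVB. In all 3 genes the groups were apart, with log2 fold changes of −2.11 ± 0.43 for HIF1A-AS1, −1.31 ± 0.27 for HIF1A-AS3 and −0.65 ± 0.07 for HIF1A (SE; edgeR adjusted p = 0.0003, 0.00032 and 1.6e-07). The 2 antisense RNAs share their named gene and are not independent pairs.

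**Figure D3:**
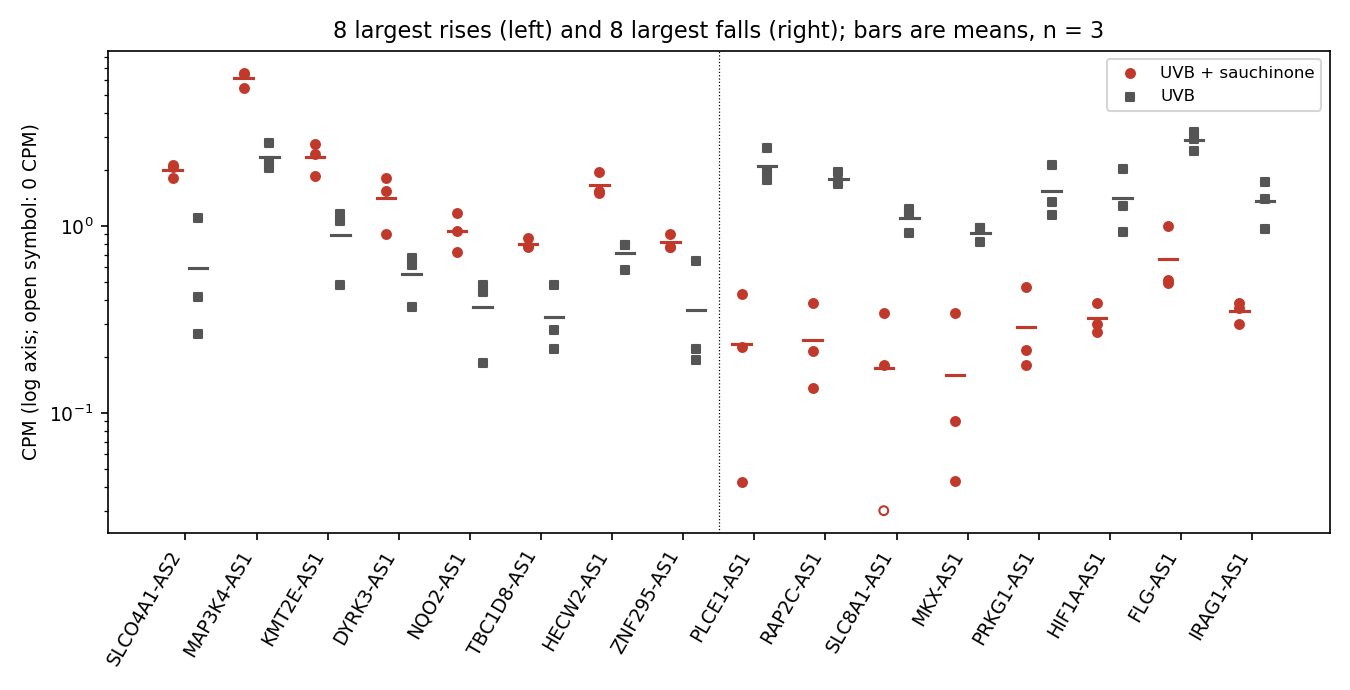
CPM in each library (vertical log axis) for the 8 largest rises and the 8 largest falls among called antisense RNAs of at least 0.3 CPM, with UVB + sauchinone as red circles, UVB as grey squares and bars for the means of 3 libraries. The open circle at the foot of the plot is the UVB + sauchinone library of SLC8A1-AS1 with 0 counts. Members were picked for groups that do not overlap.

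The largest rises were likewise picked for groups that do not overlap, and most of their counts came from the UVB + sauchinone libraries. Among them, MAP3K4-AS1 (ENSG00000272841, chromosome 6, 160990318 to 160992342) was the best covered. It had 146, 151 and 127 counts with UVB + sauchinone and 58, 48 and 46 with UVB. This was 6.19 ± 0.65 CPM with UVB + sauchinone and 2.35 ± 0.40 CPM with UVB (SD, n = 3 each), a change of 1.40 on the log2 scale (edgeR adjusted p = 3.1e-06). MAP3K4, a kinase that feeds the stress-activated p38 and JNK pathways, had 19.6, 21 and 19.6 CPM with UVB + sauchinone and 18, 19.9 and 18.8 CPM with UVB (log2 fold change 0.09, adjusted p = 0.52). The 3 UVB + sauchinone libraries of the antisense RNA all lay above the UVB libraries, and those of MAP3K4 overlapped with them. The log2 ratio of antisense to named counts rose by 1.31 without overlap of the groups (exact two-sided permutation p = 0.1, the smallest that 3 against 3 allows).

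SLCO4A1-AS2, inside an organic anion transporter gene, had 47, 48 and 42 counts with UVB + sauchinone and 23, 9 and 6 with UVB (log2 fold change 1.75 ± 0.40, edgeR adjusted p = 0.00082; 2.54 without UVB replicate 1). KMT2E-AS1, named after a gene of the KMT2 histone methyltransferase family, had 41, 56 and 64 counts with UVB + sauchinone and 10, 25 and 24 with UVB (1.37 ± 0.32, edgeR adjusted p = 0.0012). Groups were apart in both, and the named genes had log2 fold changes of 0.46 for SLCO4A1 (adjusted p = 0.23) and −0.31 for KMT2E (adjusted p = 0.021). KMT2E no longer passed without UVB + sauchinone replicate 1 (0.11) or 3 (0.13) or UVB replicate 3 (0.095), within a range of 0.00094 to 0.13.

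DYRK3-AS1, whose start lies beside that of the kinase gene DYRK3, had 34, 42 and 21 counts with UVB + sauchinone and 14, 8 and 14 with UVB. NQO2-AS1, inside a quinone reductase gene, had 16, 27 and 22 counts with UVB + sauchinone and 10, 4 and 10 with UVB. Both passed (log2 fold changes 1.35 and 1.34, edgeR adjusted p = 0.0066 and 0.017), as did DYRK3 (0.78) and NQO2 (0.62). DYRK3-AS1 was lost without UVB + sauchinone replicate 2 (adjusted p = 0.054, range 0.0035 to 0.054), and NQO2-AS1 without that library (0.087) or without UVB replicate 2 (0.087; range 0.014 to 0.087).

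TBC1D8-AS1 (log2 fold change 1.29) and ZNF295-AS1 (1.19) passed by less (edgeR adjusted p = 0.024 and 0.045). TBC1D8-AS1, inside the gene of a putative Rab GTPase activator, had 17, 18 and 20 counts with UVB + sauchinone and 10, 6 and 5 with UVB. ZNF295-AS1, whose named gene is not among the symbols of the table, had 17, 21 and 18 counts with UVB + sauchinone and 4, 14 and 5 with UVB. Each call was lost with DESeq2, without a filter on low counts and without any of several libraries. TBC1D8-AS1 had an adjusted p of 0.053 with DESeq2, 0.051 without a filter and 0.054, 0.057 and 0.070 without UVB + sauchinone replicate 1, 2 or 3, and 0.073 and 0.11 without UVB replicate 2 or 3 (range 0.019 to 0.11). ZNF295-AS1 had 0.083 with DESeq2, 0.069 without a filter, 0.083, 0.13 and 0.082 without UVB + sauchinone replicate 1, 2 or 3, and 0.19 and 0.17 without UVB replicate 1 or 3 (range 0.0073 to 0.19). Its log2 fold change was 1.95 without UVB replicate 2.

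Both genes were tested in 404 pairs, which hold 400 different named genes. Both were lower in 46 pairs and both higher in 13, and they were called in opposite directions in 16. Same-direction calls thus took 14.6% of pairs and opposite ones 3.96%. Over 204 separate pairs of divergent transcripts (-DT, described below), these shares were 15.2% and 2.94%. Over all 617 RNAs named with -AS, -DT or -IT they were 14.9% and 3.57%, but these 404 pairs make up most of that wider set. The antisense RNA alone was called in 37 pairs (18 higher, 19 lower) and the named gene alone in 150 (56 higher, 94 lower). Without UVB + sauchinone replicate 2, 5 pairs were opposite and 6 both higher, without UVB + sauchinone replicate 3 these were 8 and 7, and without UVB replicate 1 both-higher pairs were 7.

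Where the named gene was lower, 46 of 147 antisense RNAs were lower (31.3%) and 7 higher. Where it was higher, 13 of 78 were higher (16.7%) and 9 lower, and where it did not pass, 18 of 179 were higher and 19 lower. Over all tested genes, 24.7% were higher and 24.9% lower. The median span of the named gene was 106 kb where it was lower, 27.8 kb where higher and 34 kb where not past. The part of span in these shares was not tested. Across all 404 pairs the 2 log2 fold changes had a Pearson correlation of 0.306 and a Spearman correlation of 0.291, a description across pairs that share libraries, with no test. The log2 ratio of antisense to named counts, which does not depend on how libraries are scaled, did not overlap between groups in 157 pairs (38.9%). The share was 38.7% of 204 -DT pairs, and 39.1% of the wider set that includes the antisense pairs. Of the 157 pairs, the ratio was higher with UVB + sauchinone in 82 and lower in 75.

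**Figure D4:**
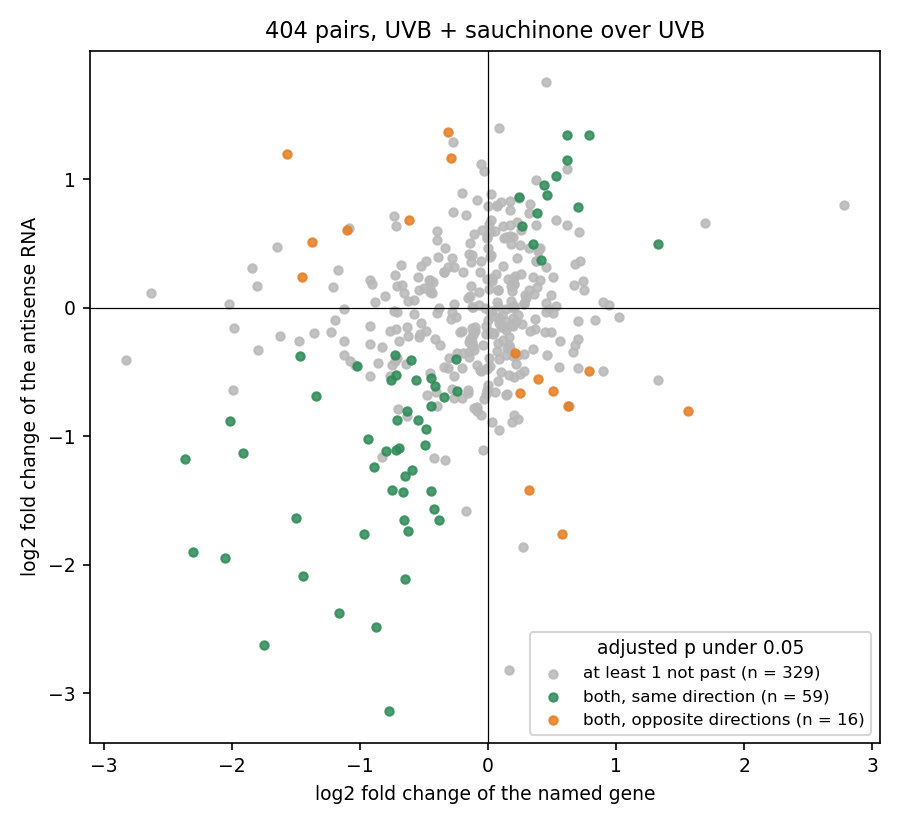
Log2 fold change of UVB + sauchinone over UVB for the antisense RNA (vertical axis) and the gene named before -AS (horizontal axis) in 404 pairs. Pairs called in the same direction are green (n = 59), pairs called in opposite directions orange (n = 16), and the points spread widely around a weak positive relation (Pearson 0.306).

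The pairs were also grouped by how the genes lie, beside 24.7% higher and 24.9% lower over all tested genes. Where the antisense RNA runs into the far end of the named gene, 4 of 85 were higher and 24 lower (28.2%), and the correlation with the named gene was 0.513. With overlapping starts, 19 of 205 were higher and 31 lower (correlation 0.224). Inside the named gene, 10 of 86 were higher and 16 lower (0.336), and of those that contain it, 4 of 38 were higher and 5 lower (0.361). In the 25 divergent pairs without overlap, 2 were higher and 3 lower. The Pearson correlation over 22 tested pairs was −0.254, and the Spearman correlation was −0.103. Over 204 pairs of -DT transcripts, some of which have overlapping starts, these correlations were 0.289 and 0.272. None of these differences between arrangements was tested.

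Where at least 50% of the exonic bases lie in introns of the named gene, 11 of 138 antisense RNAs were higher and 35 lower (25.4%). With under 50%, 28 of 302 were higher and 45 lower (14.9%). All tested genes were higher in 24.7% and lower in 24.9%. The median span of the named gene, over pairs with both genes tested, was 66 kb in the first class and 34.8 kb in the second. The correlation with the named gene was 0.443 over 126 pairs in the first class and 0.224 over 277 in the second. Partners were called in the same direction in 23% and 10.8% of these pairs, and in opposite directions in 3 and 13 of them. A count that ignores strand would add unspliced RNA of the named gene to exons lying in its introns, and its part in these values was not tested.

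The 16 opposite pairs divide into 9 with a lower antisense RNA and 7 with a higher one. HECW2-AS1, inside the ubiquitin ligase gene HECW2, had 33, 45 and 36 counts with UVB + sauchinone and 12, 17 and 18 with UVB. HECW2 had 7.82, 6.44 and 6.81 CPM with UVB + sauchinone and 21.5, 19.5 and 21.7 CPM with UVB. The groups were apart in both genes, in opposite directions (log2 fold changes 1.20 ± 0.34 and −1.57 ± 0.12, edgeR adjusted p = 0.005 and 7e-10). All exonic bases of HECW2-AS1 lie in introns of HECW2, and the part of unspliced HECW2 RNA in its counts was not tested. RASAL2-AS1 (ENSG00000224687, chromosome 1, 178090677 to 178093984) had 5.74, 7.73 and 7.93 CPM with UVB + sauchinone and 4.91, 5.23 and 4.90 CPM with UVB. RASAL2, a Ras GTPase-activating protein gene that starts beside it on the other strand, had 37.8, 34.3 and 43.0 CPM with UVB + sauchinone and 96.3, 95.9 and 107 CPM with UVB. Neither pair of groups overlapped, and the log2 fold changes were 0.51 for RASAL2-AS1 (edgeR adjusted p = 0.014) and −1.38 for RASAL2. RASAL2-AS1 no longer passed without UVB + sauchinone replicate 2 (0.062) or 3 (0.073), within a range of 0.0048 to 0.073.

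NEXN-AS1, named after the actin-binding protein nexilin, averaged 3.44 ± 0.39 CPM with UVB + sauchinone and 2.26 ± 0.21 CPM with UVB (SD, n = 3 each), while NEXN had 86.2, 95.9 and 87.0 CPM with UVB + sauchinone and 184, 166 and 227 CPM with UVB. NEXN thus fell (−1.10) while NEXN-AS1 passed in the other direction (0.60, edgeR adjusted p = 0.025). Without UVB + sauchinone replicate 2 the adjusted p of NEXN-AS1 was 0.099, and without UVB replicate 1 it was 0.096 (range 0.016 to 0.099). SVIL-AS1, the member with at least 2000 counts that was higher, averaged 46.2 ± 2.93 CPM with UVB + sauchinone and 39.1 ± 0.64 CPM with UVB (SD, n = 3 each; log2 fold change 0.24, edgeR adjusted p = 0.029). SVIL, the actin-associated protein supervillin, was lower by more (−1.46). SVIL-AS1 was chosen after its values were seen.

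Among pairs with a lower antisense RNA, ANXA2R-AS1 had 2.49, 2.55 and 2.40 CPM with UVB + sauchinone and 5.20, 2.83 and 4.94 CPM with UVB. ANXA2R, a receptor for annexin A2, had 1.81, 1.21 and 1.37 CPM with UVB + sauchinone and 0.481, 0.417 and 0.574 CPM with UVB. Each was apart between groups, with log2 fold changes of −0.80 and 1.56 (edgeR adjusted p = 0.0058 and 0.0014). EIF1B-AS1, which starts 9 bp from the translation initiation factor gene EIF1B by the table's coordinates, averaged 0.745 ± 0.234 CPM with UVB + sauchinone and 1.99 ± 0.36 CPM with UVB (SD, n = 3 each). It fell (−1.41), and EIF1B rose (0.32, edgeR adjusted p = 0.0063) but did not pass without UVB + sauchinone replicate 2 (0.054; range 0.0022 to 0.054). SNRK-AS1, with 60 counts in all, fell by 1.76 on the log2 scale beside a rise of 0.57 in the kinase gene SNRK (edgeR adjusted p = 0.016 for SNRK-AS1). It did not pass without UVB + sauchinone replicate 1 (0.095) or 2 (0.080) or UVB replicate 3 (0.084), within a range of 0.0035 to 0.095, and its log2 fold change was −2.92 without UVB + sauchinone replicate 3.

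**Figure D5:**
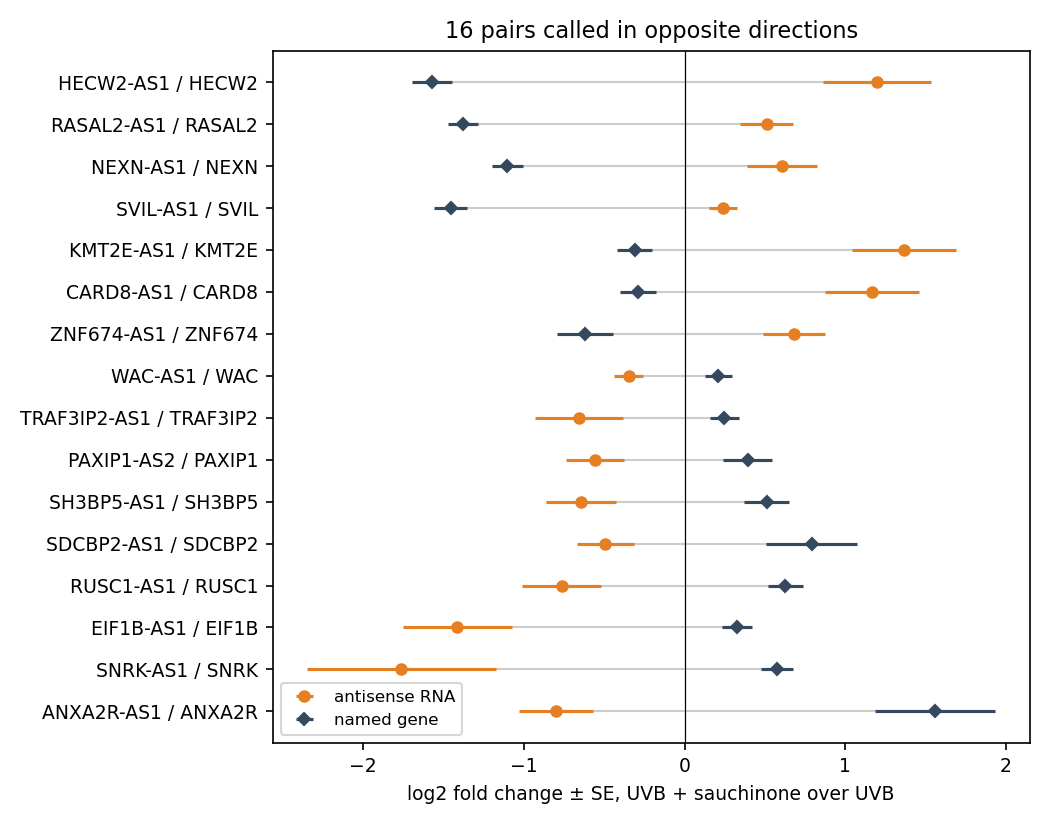
Log2 fold change of UVB + sauchinone over UVB with its SE (horizontal axis) for the antisense RNA (orange circles) and the named gene (dark diamonds) in the 16 pairs called in opposite directions. HECW2-AS1 and HECW2 lie at 1.20 and −1.57, and ANXA2R-AS1 and ANXA2R at −0.80 and 1.56.

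On a short list of antisense RNAs named after matrix, contractile and adhesion genes, most were not past the threshold. Of 10 tested, 0 were higher and 3 lower, LAMC1-AS1 (−0.87), ITGA9-AS1 (−1.09) and LOXL1-AS1 (−0.40), where 24.7% of all tested genes were higher and 24.9% lower. The 10 had a median log2 fold change of −0.31, and the named genes of the 9 pairs with both genes tested had one of −0.71. ELN-AS1, named after elastin, is not on that list and was picked after its value was seen (0.03, edgeR adjusted p = 0.96). Also outside the list are NEXN-AS1 (0.60) and SVIL-AS1 (0.24), both higher, and GSN-AS1 (−0.55) and TTN-AS1 (−0.52), both lower. HAS2-AS1, which spans 355 kb, had 3.12, 4.23 and 1.76 CPM with UVB + sauchinone and 3.03, 2.92 and 4.63 CPM with UVB. HAS2, a hyaluronan synthase gene, had 16.2, 14.3 and 12.9 CPM with UVB + sauchinone and 44.9, 40.6 and 48.7 CPM with UVB. HAS2-AS1 overlapped between groups (log2 fold change −0.22, edgeR adjusted p = 0.52) and HAS2 did not (−1.63). The log2 fold changes were −0.15 for ACTA2-AS1 (edgeR adjusted p = 0.66) beside −0.63 for the smooth muscle actin gene ACTA2. They were −0.43 for THBS1-AS1 (0.42) beside −0.86 for the matrix glycoprotein gene THBS1, with 78.1% of the exonic bases of THBS1-AS1 in exons of THBS1, and −0.04 for VIM-AS1 (0.90) beside −0.28 for the intermediate filament gene VIM. LOXL1-AS1 averaged 24.1 ± 3.08 CPM with UVB + sauchinone and 31.7 ± 1.49 CPM with UVB (SD, n = 3 each; edgeR adjusted p = 0.0031). LOXL1, which crosslinks elastin, passed narrowly (−0.25, adjusted p = 0.037) and was lost without UVB + sauchinone replicate 1 (0.073) or 2 (0.17) or UVB replicate 1 (0.078) or 2 (0.18) and with total counts only (0.087), within a range of 0.0015 to 0.18.

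A second short list held antisense RNAs named after some growth-factor, transcription-factor or stress genes. Of its 14 tested members, 2 were higher (14.3%) and 4 lower (28.6%), beside 24.7% and 24.9% of all tested genes. It does not hold every such gene, and MKX-AS1 (−2.48, lower) and ZNF503-AS2 (1.15, higher) are outside it. On the list, the higher ones were MAP3K4-AS1 and MAPKAPK5-AS1 (0.68), and the lower ones were HIF1A-AS1, HIF1A-AS3, NR2F1-AS1 (−1.02) and NR2F2-AS1. NR2F2-AS1 (ENSG00000247809), named after an orphan nuclear receptor, had 4.39, 3.59 and 3.73 CPM with UVB + sauchinone and 10.2, 8.94 and 12.1 CPM with UVB. It was lower without overlap (−1.42 ± 0.16, edgeR adjusted p = 2.2e-07), as was NR2F2 (−0.75). ZEB1-AS1 had 4.29, 5.88 and 6.86 CPM with UVB + sauchinone and 4.53, 4.91 and 4.5 CPM with UVB, and these overlapped (0.29, edgeR adjusted p = 0.20). ZEB1, a transcriptional repressor of epithelial genes, was lower (−1.17), and the log2 ratio of ZEB1-AS1 to ZEB1 was 1.43 higher with UVB + sauchinone without overlap (exact two-sided permutation p = 0.1, the smallest possible).

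OIP5-AS1 (ENSG00000247556, chromosome 15, 41283990 to 41309737), the human form of the conserved RNA Cyrano that is known for targeting a microRNA for degradation, averaged 74.5 ± 3.69 CPM with UVB + sauchinone and 98.6 ± 9.36 CPM with UVB (SD, n = 3 each). It was lower by 0.40 on the log2 scale (edgeR adjusted p = 0.00042). OIP5, a centromere protein gene, had a log2 fold change of −0.60 (adjusted p = 0.039) and was lost with DESeq2 (0.058), total counts only (0.056) or no filter (0.051) and without UVB + sauchinone replicate 1 (0.12) or 2 (0.13) or UVB replicate 1 (0.11) or 3 (0.069), within a range of 0.014 to 0.13. MCM3AP-AS1 did not pass (0.39, adjusted p = 0.14) beside 0.22 for MCM3AP (adjusted p = 0.021), a call that was lost without UVB + sauchinone replicate 1 (0.10) or 3 (0.089) or UVB replicate 1 (0.052). HOXA-AS2 had 66 counts and was untested, and HOXD-AS2 did not pass (−0.49). Below the limit of 60 lay HOXA-AS3 with 48 summed counts, SLC7A11-AS1 and COL4A2-AS1 with 26 each, HOXB-AS1 with 6, MEF2C-AS1 with 4, TGFB2-AS1 with 3, and HOXC-AS1 and ADAMTS9-AS2 with 2 each. PCNA-AS1 was not analysed here.

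Divergent transcripts, which carry the suffix -DT and start beside a gene on the other strand, are another class named after a gene. Of 207 tested, 30 were higher (14.5%) and 22 lower (10.6%), with a median log2 fold change of 0.14, against 41 higher (9.26%) and 80 lower (18.1%) of the 443 antisense RNAs and a median of −0.10. Of 9 intronic transcripts (-IT), 1 was higher and 3 were lower, with a median of −0.22. Over all tested genes, 24.7% were higher and 24.9% lower. The median span was 8.96 kb for the tested -DT transcripts and 17.2 kb for the tested antisense RNAs. The difference between the classes was not tested.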

How the data were processed

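The authors deposited raw counts per gene and library, which are whole numbers, and FPKM values. GRCh38 is the genome build in the submitters' processing notes. Which aligner, counter and annotation were used, and whether strand was, is not given in the sources used here; the labels' protocols name poly(A) selection or removal of ribosomal RNA without saying which. The deposited FPKM values were used only for levels per length.

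The deposited counts of all 61806 genes went into edgeR 4.0.16 under R 4.3.3 (filterByExpr, TMM, quasi-likelihood test, two-sided, Benjamini-Hochberg adjustment over 15704 tested genes, threshold 0.05), without covariates. Positive log2 fold changes mean higher with UVB + sauchinone. The SE is the log2 fold change divided by the square root of F. Ratios of antisense to named counts used a pseudocount of 0.5. Exon overlap used genes of GENCODE release 29. The overlap check used genes of at least 300 exonic bases whose exonic size was the same in that release and in the table.

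Libraries of a group were compared before averaging, and none was a copy of another. Alternatives were DESeq2 1.42.0, limma-voom (limma 3.58.1), other scalings and filters, other count limits, the replicate number as a block, and each library left out.

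Named RNAs followed a rule: the 8 largest rises and 8 largest falls among called members of at least 0.3 CPM whose groups do not overlap, the 5 members with the highest FPKM, the 6 opposite pairs with the largest difference, a list of known antisense RNAs, and those at the count limit. The members, lists and rule were chosen with earlier results of these data known, and further names were chosen after their values were seen.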

Additional observations from a re-analysis of the deposited data

How the results depend on the processing

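Counts of lower antisense RNAs moved little with the tool, scaling or filter, and counts of higher ones moved more. In all, 105 were called with DESeq2 (31 higher, 74 lower), against 121 (41 higher, 80 lower). There were 123 with limma-voom (42 higher, 81 lower) and 111 without a filter on low counts (34 higher, 77 lower). Pairs with both genes higher were 8 with DESeq2 and 9 without a filter, against 13. With each library left out in turn, called genes numbered 6718 to 7914, called antisense RNAs 91 to 117, higher ones 25 to 34, lower ones 66 to 83, opposite pairs 5 to 12 and both-higher pairs 6 to 10. Same-numbered libraries did not deviate together (correlations 0.0072, −0.078 and −0.031), so the replicate number was taken only as a name. With it as a block, 7280 genes and 113 antisense RNAs (37 higher, 76 lower) were called, with 11 opposite pairs, 10 both higher and 45 both lower. Among the named genes, LOXL1 (adjusted p = 0.071) and WAC (0.076) no longer passed with the block. Of the values of single named genes under these alternatives, 899 kept their direction and side of the threshold, 52 calls were lost, 2 were gained (RAP2C with total counts only and without UVB replicate 3) and 13 changed sign; the cause was not tested. The 13 belong to 5 genes that did not pass. With total counts only, TBX5 was at 0.022, TBX5-AS1 at 0.043 and VIM-AS1 at 0.0080 on the log2 scale. With each library left out, HAS2-AS1 ran from −0.54 to 0.060, MYG1 from −0.40 to 0.30, TBX5 from −0.15 to 0.065, TBX5-AS1 from −0.072 to 0.039 and VIM-AS1 from −0.13 to 0.054, so no direction is given for them. The median standard error of the log2 fold change was 0.30 for the antisense RNAs and 0.12 for all tested genes. With 60 to 199 counts it was 0.422 for the antisense RNAs and 0.42 for all genes, with 15.7% and 22.7% called. With 600 to 1999 counts it was 0.16 and 0.15, with 39.7% and 54.5% called. The part of low counts in the share called was not tested.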

Other observations

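STARD4-AS1, named after a cholesterol transport gene and chosen after its values were seen, had 6.47, 6.39 and 5.78 CPM with UVB + sauchinone and 21.4, 14 and 23.1 CPM with UVB. Its log2 fold change was −1.65 ± 0.16 (SE; edgeR quasi-likelihood test, adjusted p = 1.6e-08), and STARD4 was also lower (−0.66). MAGI2-AS3, among the most abundant members, averaged 69.8 ± 1.69 CPM with UVB + sauchinone and 110 ± 19.6 CPM with UVB (SD, n = 3 each; edgeR adjusted p = 9.3e-06), while the scaffold gene MAGI2 did not pass (−0.40, adjusted p = 0.068).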
